A study of Mus musculus with 16 samples.

Results

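TCRBV29-01 is the name that the immunoSEQ assay gives to Trbv29, the mouse T cell receptor β variable gene whose protein product is known as Vβ7. Its rearrangements were followed in samples labelled as T cells from KPC.Luc tumors. These tumors grow from a mouse pancreatic cancer line that expresses luciferase. The line was placed under the skin of 16 female C57BL/6 mice, with 4 mice in each of 4 treatment groups. The gene was chosen by its template counts and recurrent CDR3s in earlier results on the same samples, and its rearrangements by the assay's V gene call alone. They numbered 8506 of 198953 unique rearrangements over the 16 samples, and 6137 of 126344 when restricted to productive ones, which read through in frame without a stop codon. A further 2308 of 70245 out-of-frame rearrangements used TCRBV29-01 and served as the reference, and the remaining 61 held a stop codon.

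Control mice received a scrambled peptide and isotype IgG. The ANT008 group was given ANT008, a peptide antagonist of the receptors for vasoactive intestinal peptide (VIP), with IgG. The anti-PD-1 group was given the scrambled peptide with an antibody to the PD-1 checkpoint receptor. The combination group was given ANT008 and anti-PD-1. Peptides were injected subcutaneously at 10 µg daily and antibodies intraperitoneally at 200 µg every 3 days over 10 days, in mice 8 to 10 weeks old by the study's methods. Per the labels, T cells were pulled from the tumors with CD90.2 magnetic beads and RNA was extracted, but the same protocol text goes on to another assay. For the TCRβ survey, the study's results text speaks of DNA extracted from tumors, while its methods name harvested tumors and RNA. How far the samples held other cells is therefore not settled by these sources, and the files hold TCRβ rearrangements only, so no other marker of a T cell could be checked. More cells of a clone and more receptor RNA per cell therefore could not be told apart.

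A TCRβ chain is made by joining a V, a D and a J segment in the thymus. Nucleotides are trimmed from the segment ends and others are added without a template, which makes the third complementarity-determining region (CDR3), the loop that touches the peptide antigen, differ between T cells. A rearrangement that ends up out of frame gives no receptor but is kept in a T cell whose other allele is productive. Vβ7 is used by conventional CD4+ and CD8+ T cells and, with Vβ8 (the Trbv13 genes) and Vβ2 (Trbv1), by type I NKT cells, which recognise lipid antigens. RefSeq lists Trbv29 (GRCm38.p6) as a V segment pseudogene between Trbv28 and Trbv30, and the assay nevertheless read 72.15% of its unique rearrangements as productive.

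The sequences that the results return to most often are those of 1 CDR3, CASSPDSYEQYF, which was built by several different joins, and they are shown with the uncut end of the V gene from which each was made. The uncut end was read from 450 of the 464 productive TCRBV29-01 rearrangements with no V deletion. Each line starts at the cysteine codon that opens the CDR3 and stops before the codon of its last phenylalanine, which the reads did not reach. Capitals mark inserted nucleotides that the assay assigned to no segment.
TCRBV29-01 uncut end: tgtgctagcagtttatc
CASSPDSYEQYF version 1: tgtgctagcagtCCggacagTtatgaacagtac
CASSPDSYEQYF version 2: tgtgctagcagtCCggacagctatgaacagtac
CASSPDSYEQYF version 3: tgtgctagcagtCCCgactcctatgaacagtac
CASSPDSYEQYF version 4: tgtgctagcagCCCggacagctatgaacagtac
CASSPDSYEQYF version 5: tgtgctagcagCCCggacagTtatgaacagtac
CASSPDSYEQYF version 6: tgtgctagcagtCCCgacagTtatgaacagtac
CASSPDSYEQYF version 7: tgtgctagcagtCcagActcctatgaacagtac

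Depth differed widely between mice and set the precision of each share. Productive templates, the assay's estimate of starting molecules, ranged from 7180 to 72588 per sample, and productive TCRBV29-01 templates from 291 to 2692. All 16 samples came from a single order and no batch was recorded. At most 0.0433% of the productive templates of a sample had no resolved V gene. Intervals on shares above 0 are 95% Wilson intervals and, like the limits for a count of 0, cover counting error only, since amplified reads are not independent molecules.

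TCRBV29-01 was a V gene of intermediate use in these tumors. It made up 4.55% ± 1.72 (SD, n = 16) of productive templates, which placed it 11 among 33 V genes, and 4.79% ± 0.601 of unique productive rearrangements, which placed it 12. Just above it by mean share of templates was TCRBV05-01 at 5.38% ± 2.53 and just below it TCRBV12-01 at 4.25% ± 2.09, and neither neighbour stood apart from it beyond the SD over mice. Its share of templates varied more between mice than its share of unique rearrangements, in which each clone counts once however large. The SD was 37.9% of the mean by templates and 12.6% by unique rearrangements. This was not particular to the gene, with 46.9% and 8.02% for TCRBV05-01 and 49.1% and 14.7% for TCRBV12-01.

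By templates the 4 groups overlapped throughout. The control mice had 2.69%, 5.26%, 2.78% and 5.45% of productive templates in TCRBV29-01. The ANT008 mice had 6.01%, 5.01%, 2.52% and 3.15%. The anti-PD-1 mice had 4.97%, 8.52%, 3.09% and 5.04%. The highest value of all was thus that of anti-PD-1 mouse 2, with an interval of 8.22% to 8.83%. The combination mice had 4.93%, 6.90%, 2.62% and 3.85%. Each group had at least 1 mouse between 2.52% and 3.09%, namely replicate 3 of every group and also control 1.

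Group means were 4.04% ± 1.52 in control, 4.17% ± 1.61 in the ANT008, 5.41% ± 2.26 in the anti-PD-1 and 4.57% ± 1.82 in the combination group (SD, n = 4 each). In edgeR's quasi-likelihood test over 25 V genes, TCRBV29-01 differed from control by 0.05 on the log2 scale for ANT008 (SE 0.43, with an adjusted p of 0.968). It was 0.42 for anti-PD-1 (SE 0.43, with an edgeR adjusted p of 0.699), and 0.11 without anti-PD-1 2. For the combination it was 0.18 (SE 0.43, with an edgeR adjusted p of 0.958). None of these differences exceeded the spread between mice. For comparison, 1 of the 25 V genes (4%) was called for ANT008, namely TCRBV24-01, and 0 (0%) for anti-PD-1 and for the combination, where 4 and 5 V genes had an unadjusted p under 0.05 and DESeq2 called 0 and 1. The term for an interaction of both agents was -0.29 (SE 0.61, edgeR adjusted p = 0.764) for TCRBV29-01, and 1 of the 25 V genes (4%), again TCRBV24-01, was called. DESeq2 was not run for the interaction.

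The sign of the small template differences was not fixed. With TMM scaling, which moved the median V gene by -0.19, -0.27 and -0.23 in the ANT008, anti-PD-1 and combination comparisons, the log2 fold change of TCRBV29-01 became -0.29, 0.11 and -0.20. Leaving out the templates of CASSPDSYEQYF, an alternative chosen after seeing the data, took the anti-PD-1 value from 0.42 to 0.09, and leaving out the most frequent rearrangement of every V gene in every mouse also gave 0.09. The gene was taken up with the level of this CDR3 in the anti-PD-1 mice already known, so that contrast does not stand as independent evidence for or against a change.

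Counted by unique rearrangements, the gene's share varied less between mice. Control mice held 4.44% ± 0.808, ANT008 mice 4.98% ± 0.493, anti-PD-1 mice 4.79% ± 0.733 and combination mice 4.93% ± 0.371 (SD, n = 4 each). The lowest mice were control 4 at 3.31% and anti-PD-1 4 at 3.96%, and the highest was anti-PD-1 2 at 5.75%. In edgeR the log2 fold changes were 0.17 (SE 0.12, adjusted p = 0.364), 0.11 (SE 0.12, adjusted p = 0.707) and 0.13 (SE 0.11, adjusted p = 0.842) in the ANT008, anti-PD-1 and combination groups. Of 24 V genes, 0 (0%) were called in each of the 3 comparisons, where 2, 1 and 1 had an unadjusted p under 0.05 and DESeq2 called 0. Rearrangements seen as a single template made up 73.8% ± 5.63 of the unique ones (SD, n = 16), and without them all 3 differences turned negative, to -0.15, -0.10 and -0.18, with none called. Control 4 alone also moved all 3, which were 0.07, 0.0139 and 0.0322 without that mouse.

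**Figure D1:**
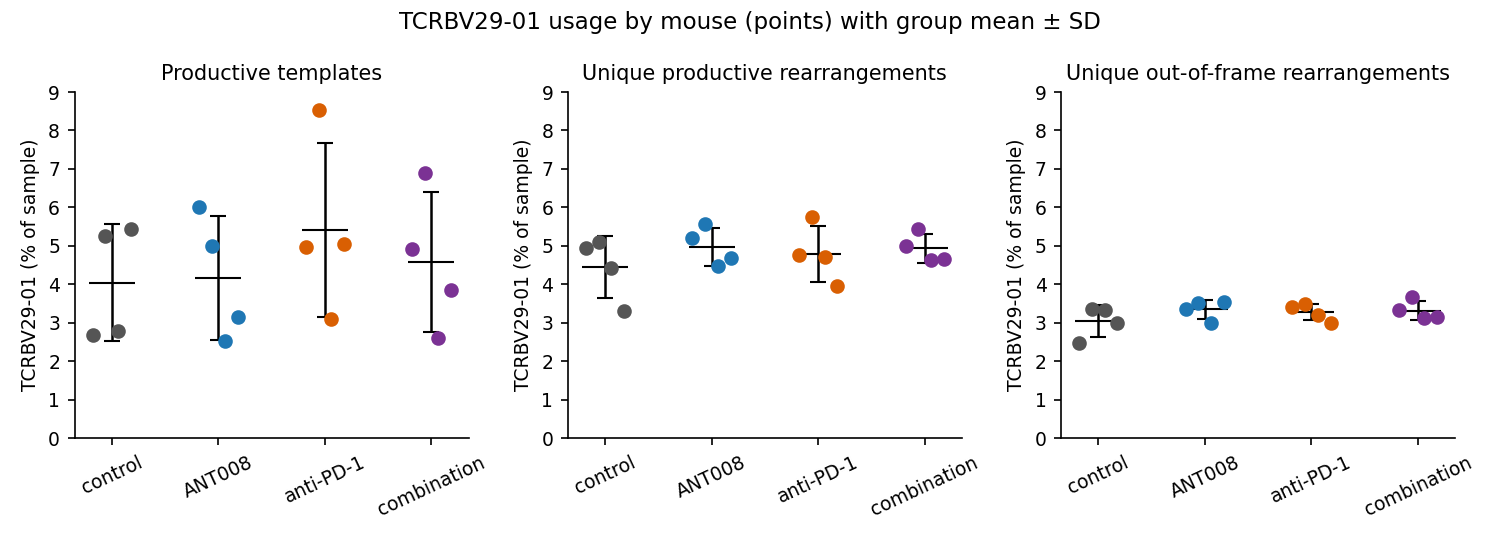
Share of TCRBV29-01 in each mouse (points, replicates 1 to 4 from left to right within a group) as a percent of productive templates, of unique productive rearrangements and of unique out-of-frame rearrangements, with the group mean and SD (bars, n = 4). The template shares spread from 2.52% to 8.52%, the unique productive shares from 3.31% to 5.75% and the out-of-frame shares from 2.48% to 3.67%, and the groups overlapped in all 3 panels.

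Out-of-frame rearrangements, which give no receptor, were the reference for the gene's share. TCRBV29-01 made up 3.05% ± 0.413, 3.36% ± 0.247, 3.28% ± 0.219 and 3.32% ± 0.253 of unique out-of-frame rearrangements in control, ANT008, anti-PD-1 and combination mice. The log2 fold changes against control were 0.12, 0.08 and 0.07, with edgeR adjusted p = 0.693, 0.925 and 0.898. None of 24 V genes (0%) was called in any of the 3 comparisons, where 4, 0 and 0 had an unadjusted p under 0.05 and DESeq2 called 0.

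Within each mouse, TCRBV29-01 was more common among productive than among out-of-frame rearrangements. The productive share was 4.79% ± 0.601 and the out-of-frame share 3.25% ± 0.290 (SD, n = 16), and the log2 ratio of both was 0.55 ± 0.18. It lay above 0 in 16 of 16 mice, from 0.14 in control 4 to 0.99 in control 1, and the adjusted p by an exact two-sided sign-flip test was 5.63e-05, from an unadjusted p of 3.05e-05, the smallest that 16 pairs can give. Unequal shares were common, since 15 of the 24 V genes tested (62.5%) were called, 9 (37.5%) higher among productive rearrangements and 6 (25%) lower. Of the 24, only TCRBV12-02 had a larger mean ratio, at 0.79 ± 0.19. The ratio had group means of 0.54 ± 0.36 in control, 0.57 ± 0.12 in the ANT008, 0.54 ± 0.14 in the anti-PD-1 and 0.57 ± 0.01 in the combination group (SD, n = 4 each). That of the 4 combination mice lay between 0.57 and 0.59.

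Counted by templates in place of unique rearrangements, the ratio was 0.54 but no longer passed the test (exact sign-flip adjusted p = 0.107). Single out-of-frame rearrangements carried many of those templates. In control 3, 1 out-of-frame rearrangement with TCRBJ02-05 had 1554 templates, 8.76% of all out-of-frame templates of that mouse and 78.6% of its TCRBV29-01 out-of-frame templates. Another with TCRBJ01-04 had 1183 templates in anti-PD-1 3, 4.82% of that mouse's out-of-frame templates. A further one with TCRBJ01-01 had 398 templates in anti-PD-1 2, 64.0% of that mouse's TCRBV29-01 out-of-frame templates. The ratio by templates was not computed without these rearrangements. The first 2, which had the most templates, are shown with inserted nucleotides in capitals.
Control 3, out-of-frame: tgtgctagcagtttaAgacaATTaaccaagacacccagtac
Anti-PD-1 3, out-of-frame: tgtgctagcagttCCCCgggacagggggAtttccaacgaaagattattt

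**Figure D2:**
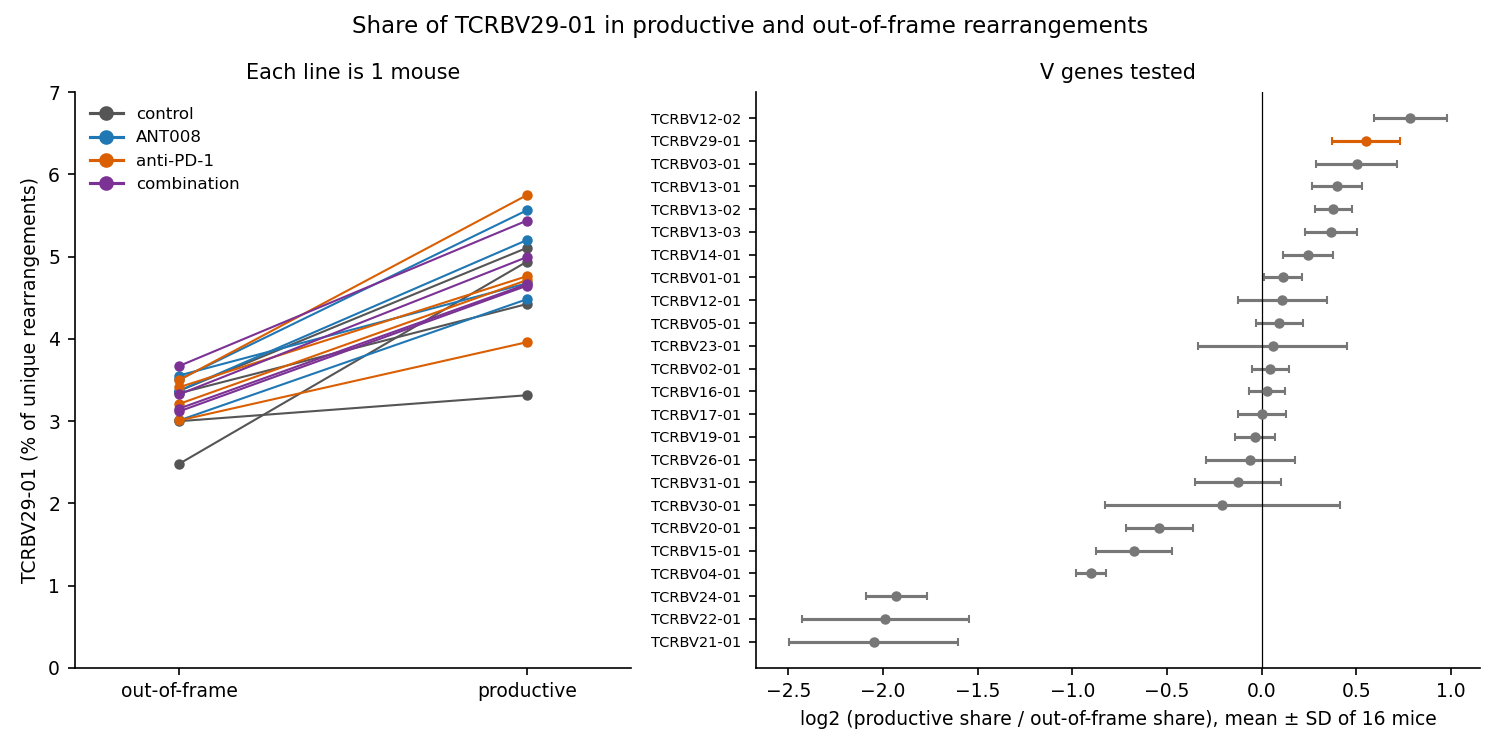
Left, percent of unique out-of-frame and of unique productive rearrangements that used TCRBV29-01, with 1 line per mouse coloured by group. Right, log2 ratio of the productive to the out-of-frame share for the 24 V genes tested, as mean and SD of 16 mice, where TCRBV29-01 (orange) was second from the top at 0.55 and every mouse's line on the left rose.

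Among the V genes known from type I NKT cells (TCRBV13-01, TCRBV13-02, TCRBV13-03, TCRBV01-01 and TCRBV29-01), 5 of 5 were called with a higher productive than out-of-frame share, beside the 37.5% called higher over all V genes, with a median log2 ratio of 0.38 beside 0.04 over all 24 V genes. The list, like the one that follows, was chosen with earlier results of these data known. It holds TCRBV29-01 itself, and all 5 are counted in the 37.5%, so no enrichment is read from it. None of these 5 was called against control by templates or by unique rearrangements in any treated group. Their median log2 fold change by templates was -0.04, -0.01 and 0.18 in the ANT008, anti-PD-1 and combination groups, beside 0.05, 0.34 and 0.13 over all V genes tested. The 6 V genes of the end of the locus that holds the D segments (TCRBV23-01, TCRBV24-01, TCRBV26-01, TCRBV29-01, TCRBV30-01 and TCRBV31-01) had a median log2 ratio of -0.09, with 1 called higher, TCRBV29-01, and 1 lower, TCRBV24-01. By templates, TCRBV24-01 was called higher with ANT008 (log2 fold change 2.74, SE 0.73, edgeR adjusted p = 0.0249), and the other 5 were not called in any treated group. That call was lost with TMM scaling and without any 1 of control 1 to 4, ANT008 3 or ANT008 4, each of which left 0 V genes called.

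The V genes whose share of unique productive rearrangements ran most like that of TCRBV29-01 over the 16 samples were TCRBV31-01 (Spearman's rho 0.41), TCRBV30-01 (0.37) and TCRBV12-01 (0.28). These are descriptions over shares that come from the same libraries and add up to a fixed total. All 3 are weak.

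TCRBV29-01 joined to a pair of J1 genes more often, and to 4 J2 genes less often, than other V genes did. Of its unique productive rearrangements, 9.38% ± 2.15 used TCRBJ01-04 and 7.92% ± 1.69 TCRBJ01-02, against 7.09% ± 0.434 and 5.41% ± 0.524 of those of all other V genes (SD, n = 16). Each was higher in 15 of 16 mice, with adjusted p = 0.00107 and 0.00114 by exact sign-flip tests. The share with TCRBJ02-07, the most used J gene, was lower at 17.7% ± 2.96 against 21.3% ± 0.856, in 15 of 16 mice (exact test, adjusted p = 0.000854). Without rearrangements of a single template this difference shrank from -3.60 to -0.890 percentage points and was no longer called (exact test, adjusted p = 0.679). The share with TCRBJ02-05 was also lower, at 9.58% ± 1.83 against 11.3% ± 0.626, in 12 of 16 mice (exact test, adjusted p = 0.00758).

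In all, 6 of 14 J genes (42.9%) were called. The other 2 were TCRBJ02-03 at 7.64% against 8.60% (exact test, adjusted p = 0.0263) and TCRBJ02-04 at 6.54% against 7.90% (exact test, adjusted p = 0.0298), both lower. The TCRBJ02-03 call was lost without control 4, anti-PD-1 2 or combination 2, with adjusted p up to 0.0526. The TCRBJ02-04 call was lost without control 4, ANT008 2, ANT008 4, anti-PD-1 2, anti-PD-1 3 or combination 2, with adjusted p up to 0.0594, and without rearrangements of a single template, where the difference went from -1.37 to -0.944 points (exact test, adjusted p = 0.327). The largest J share that did not pass was that of TCRBJ02-01, at 13.96% ± 3.42 against 12.98% ± 0.805. TCRBJ01-01, TCRBJ01-03, TCRBJ01-05 and TCRBJ01-06 had mean differences of 0.479 to 0.595 percentage points and TCRBJ02-02 one of -0.340, none called. TCRBJ01-07 was found with TCRBV29-01 in no productive rearrangement and TCRBJ02-06 in 0.0199% of them.

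Among out-of-frame rearrangements 1 of 14 J genes (7.14%) was called, TCRBJ02-04 at 5.93% ± 2.04 against 7.92% ± 0.636 (exact test, adjusted p = 0.0367). That call was lost without any 1 of control 2, control 4, the 4 ANT008 mice, anti-PD-1 1, anti-PD-1 2, anti-PD-1 4 or combination 4, where 0 J genes were called, and 4 were called without combination 2. TCRBJ01-04 at 9.04% against 6.76%, TCRBJ01-02 at 8.55% against 7.07% and TCRBJ02-07 at 17.97% against 20.5% differed in the same direction as in productive rearrangements and did not pass (exact tests, adjusted p = 0.0714, 0.0821 and 0.0821). With 51 to 235 unique out-of-frame TCRBV29-01 rearrangements per mouse, against 100 to 661 productive ones, these shares were less precise.

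By templates the picture of TCRBJ02-07 turned. It held 35.9% ± 14.6 of productive TCRBV29-01 templates against 28.5% ± 9.02 for other V genes, higher in 11 of 16 mice (exact test, adjusted p = 0.254), and 0 of 14 J genes (0%) were called, with 2 at an unadjusted p under 0.05. The share ran from 14.8% in ANT008 3 and 18.3% in combination 4 to 57.5% in anti-PD-1 4 and 67.5% in anti-PD-1 2. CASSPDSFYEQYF and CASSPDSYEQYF, both with TCRBJ02-07, led the TCRBV29-01 clones of those last 2 mice, as given with the leading clones.

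**Figure D3:**
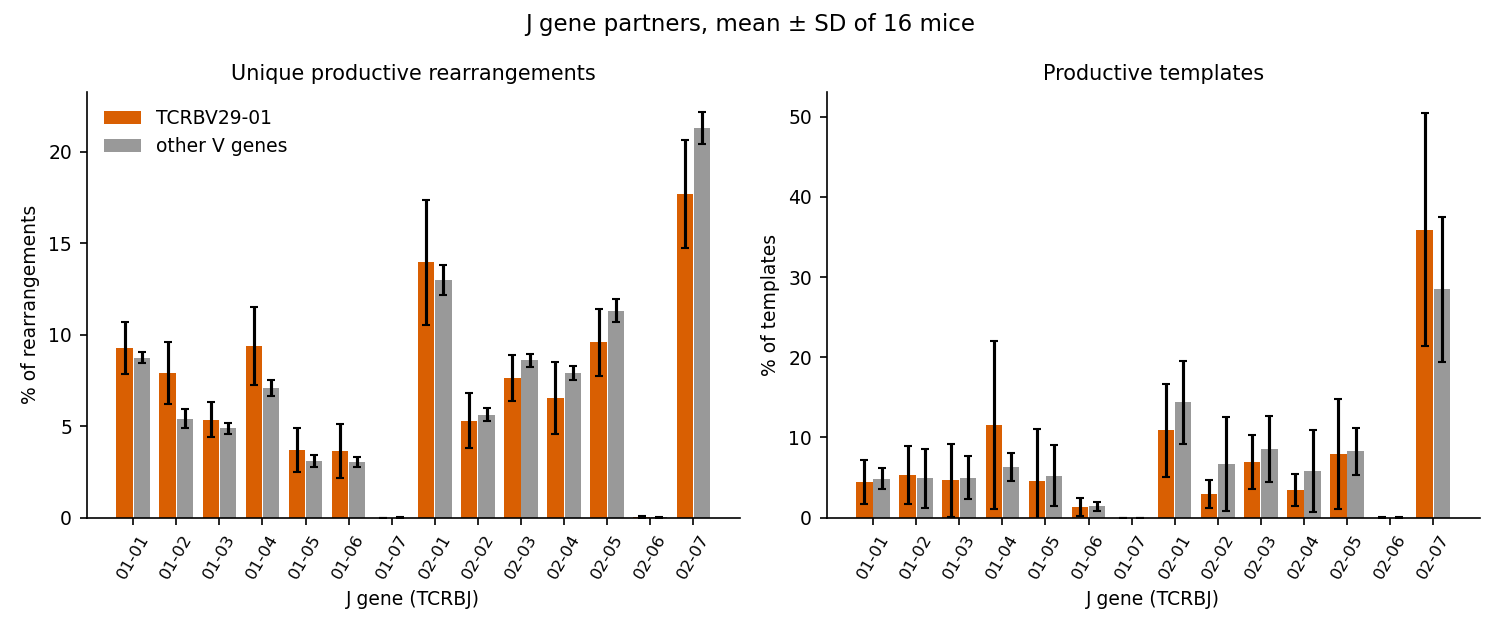
J genes joined to TCRBV29-01 (orange) and to all other resolved V genes (grey), as percent of unique productive rearrangements (left) and of productive templates (right), with bars for the mean and whiskers for the SD of 16 mice. TCRBJ02-07 was lower with TCRBV29-01 by unique rearrangements (17.7% against 21.3%) and higher by templates (35.9% against 28.5%).

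No J partner of the gene passed the test for treatment. Of the 236 V-J pairs tested by unique rearrangements, 12 held TCRBV29-01, and edgeR called 0 of the 12 and 0 of the 236 (0%) in each comparison, with 18 of the 236 at an unadjusted p under 0.05 in the ANT008, 11 in the anti-PD-1 and 12 in the combination comparison, and 0 called by DESeq2. The TCRBV29-01 pair with the lowest p was TCRBJ02-02 with ANT008, with a change of 0.85 on the log2 scale and an SE of 0.29 (edgeR, adjusted p = 0.550).

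The junctions of TCRBV29-01 were trimmed deeper than those of most V genes. An average of 4.01 ± 0.16 nucleotides was deleted from the V end in unique productive rearrangements, against 2.57 ± 0.04 over all other V genes, and the difference of 1.43 had the same sign in 16 of 16 mice (exact sign-flip test, adjusted p = 4.58e-05). Out-of-frame rearrangements gave 4.39 ± 0.41 against 3.02 ± 0.14, again in 16 of 16 mice (exact test, adjusted p = 9.16e-05). Of the 20 V genes compared by mean V deletion, TCRBV29-01 was second to TCRBV04-01 at 4.71, with TCRBV15-01 close behind it at 3.98.

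The profile of the deletions showed where the difference lay. Only 7.65% ± 2.26 of unique productive TCRBV29-01 rearrangements kept the V end whole, against 24.0% ± 0.789 for other V genes. Deletions of 5 and 6 nucleotides made up 17.3% ± 2.89 and 16.8% ± 2.44, against 12.5% ± 0.506 and 5.24% ± 0.222. In the uncut end printed above, a deletion of 5 stops after the second serine codon agt and a deletion of 6 takes its last base, and versions 1 to 7 of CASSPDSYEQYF all carried a deletion of 5 or 6.

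More nucleotides were inserted and the CDR3 was slightly shorter. TCRBV29-01 junctions held 3.78 ± 0.14 inserted nucleotides in productive rearrangements against 3.55 ± 0.08 for other V genes, higher in 16 of 16 mice (exact test, adjusted p = 4.58e-05), and 4.53 ± 0.47 against 4.13 ± 0.15 in out-of-frame ones (exact test, adjusted p = 0.00162). CDR3 length averaged 41.6 ± 0.374 nucleotides against 42.0 ± 0.201 in productive rearrangements, lower in 14 of 16 mice (exact test, adjusted p = 0.00253). The most common CDR3 length was 14 amino acids, in 30.6% of unique productive rearrangements. The CDR3 opened with CASSL, whose leucine can come from the V end, in 33.4% of unique productive rearrangements and 38.3% of templates, and with CASSP in 14.7% and 23.0%. TCRBD01-01 was called in 56.2% of the unique productive TCRBV29-01 rearrangements and TCRBD02-01 in 23.3%, against 41.3% and 40.5% for other V genes, with no D gene called in 20.5% and 18.2%. The shares by D gene, by CASSL or CASSP and by a length of 14 amino acids pool all 16 mice and were not tested.

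**Figure D4:**
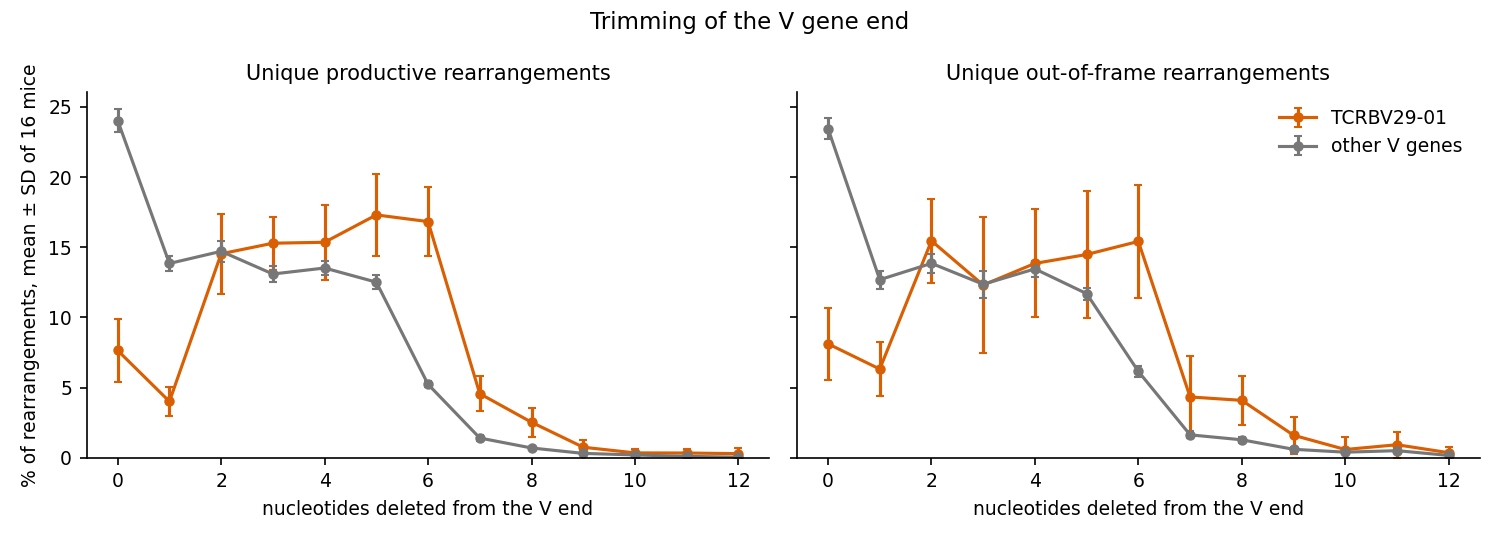
Percent of unique rearrangements by number of nucleotides deleted from the V end, up to 12, for TCRBV29-01 (orange) and all other resolved V genes (grey), productive on the left and out-of-frame on the right, as mean and SD of 16 mice. An uncut V end was found in 7.65% of productive TCRBV29-01 rearrangements against 24.0% for other V genes, and the orange lines lay higher at 6 deletions in both panels.

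With all 16 mice, neither CDR3 length nor the number of inserted nucleotides passed the test against control. Mean CDR3 length was 41.3 ± 0.135 nucleotides in control, 41.8 ± 0.300 in the ANT008, 41.7 ± 0.549 in the anti-PD-1 and 41.5 ± 0.228 in the combination group (SD, n = 4 each). In Dunnett's comparison with control, made over all assignments of the mice (exact permutation), p was 0.108, 0.195 and 0.780. Adjusted by Benjamini-Hochberg over all measures and groups compared this way, the exact permutation p was 0.834 for ANT008 and for anti-PD-1. Leaving out 1 anti-PD-1 mouse brought the p before this adjustment under 0.05 in 2 of these. Without anti-PD-1 4 the ANT008 difference of 0.53 nucleotides had an exact permutation p of 0.0330. Without anti-PD-1 1 the anti-PD-1 difference of 0.64 had an exact permutation p of 0.0356. Neither was adjusted over measures or over the mice left out in turn. Weighted by templates, the anti-PD-1 and combination differences turned to -1.74 and -0.74 nucleotides. Mean inserted nucleotides were 3.81 ± 0.116, 3.84 ± 0.166, 3.66 ± 0.132 and 3.82 ± 0.101, with exact permutation p = 0.980, 0.278 and 0.99992.

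Clones were compared next, beginning with the most frequent TCRBV29-01 rearrangement of each mouse. In control mice 1 to 4 these encoded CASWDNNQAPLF at 0.681% of productive templates, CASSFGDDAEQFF at 1.17%, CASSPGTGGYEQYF at 0.304% and a CDR3 of 15 amino acids with TCRBJ01-04 at 2.36%. In ANT008 mice 1 to 4 they encoded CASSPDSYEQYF at 2.04%, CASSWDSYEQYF at 0.507%, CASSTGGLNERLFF at 0.199% and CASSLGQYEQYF at 0.424%. The first 2 of these ANT008 CDR3s differ by 1 amino acid. In anti-PD-1 mice 1 to 4 the leading CDR3s were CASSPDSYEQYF at 1.13%, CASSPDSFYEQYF at 2.77%, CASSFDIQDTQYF at 0.535% and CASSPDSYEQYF at 2.69%. In combination mice 1 to 4 they were a CDR3 of 15 amino acids with TCRBJ02-07 at 1.54%, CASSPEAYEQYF at 1.70%, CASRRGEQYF at 0.600% and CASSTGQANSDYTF at 0.359%. TCRBJ02-07 was the J gene of 10 of these 16 leading rearrangements, those of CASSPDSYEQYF among them. The J genes of the leading rearrangements of other V genes were not compared. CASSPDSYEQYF was the only CDR3 to lead in more than 1 of the 16 mice. The leading CDR3 was found with TCRBV29-01 in no other mouse in 6 of the 16 cases.

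The junctions of the largest such clone in the anti-PD-1 and in the control group are shown to set them beside the versions of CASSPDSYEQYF. The first was assigned 8 inserted nucleotides, as was the second.
Anti-PD-1 2, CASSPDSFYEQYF: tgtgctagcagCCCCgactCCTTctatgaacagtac
Control 4, leading rearrangement: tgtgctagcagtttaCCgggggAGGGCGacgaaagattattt

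The leading rearrangement made up a large part of the gene's templates in every group. It held 25.4% ± 13.4 of productive TCRBV29-01 templates in control, 16.4% ± 11.97 in the ANT008, 31.5% ± 15.9 in the anti-PD-1 and 22.03% ± 9.16 in the combination group (SD, n = 4 each). The range was 7.90% in ANT008 3 to 53.3% in anti-PD-1 4. Against control, Dunnett's comparison by exact permutation gave p = 0.643, 0.850 and 0.967. The 10 most frequent TCRBV29-01 rearrangements together held 57.6% ± 15.7 of the gene's templates over the 16 mice. Of the 50 most frequent CDR3s of a mouse, 1 to 6 had TCRBV29-01 as their main V gene, with a mean of 3.00, 3.00, 2.75 and 3.25 in control, ANT008, anti-PD-1 and combination mice.

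Most TCRBV29-01 CDR3s were private. Of 5344 distinct CDR3 amino acid sequences, 5023 were found in 1 mouse, 321 in at least 2 and 25 in at least 4. The 25 were 0.468% of the gene's CDR3s and held 14.3% of its templates, 2189 of their 3300 templates being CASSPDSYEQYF. The share found in at least 4 mice placed TCRBV29-01 at 16 among 20 V genes, whose median was 0.714%. CDR3s of a single mouse carried an average of 3.98 inserted nucleotides per nucleotide version, against 2.44 for those in 2 mice, 2.56 for those in 3 and 2.64 for those in at least 4. A CDR3 in at least 4 mice had on average 5.08 nucleotide versions, against 1.81 for one in 2 mice. Versions were pooled over all mice, so a CDR3 found in more mice could gather more of them by that alone.

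The part of a mouse's TCRBV29-01 templates held by these 25 CDR3s ranged from 1.29% in combination 4 to 54.4% in anti-PD-1 4. It was 1.57% to 19.5% in the control, 3.44% to 36.4% in the ANT008, 14.2% to 54.4% in the anti-PD-1 and 1.29% to 5.16% in the combination mice. Anti-PD-1 thus overlapped with control and ANT008 but not with the combination. Nothing is read from this, since the 25 include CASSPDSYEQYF, taken up with its pattern over the groups known. The same share was not computed for the recurrent CDR3s of other V genes. Without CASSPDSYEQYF the ranges were 0.640% to 11.4%, 1.91% to 11.8%, 0.276% to 18.8% and 0.716% to 4.25%, and all 4 groups overlapped.

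The 10 most widely found were led by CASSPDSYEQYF in 14 mice. A pair of CDR3s of 15 amino acids with TCRBJ02-01 followed in 9 mice each, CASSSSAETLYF in 8, and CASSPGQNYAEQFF and another CDR3 of 15 amino acids with TCRBJ02-01 in 7 each. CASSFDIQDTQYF, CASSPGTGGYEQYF, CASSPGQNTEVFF and a CDR3 of 16 amino acids with TCRBJ02-01 were found in 5 mice each. Apart from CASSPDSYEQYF, only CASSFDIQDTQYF (0.536% in anti-PD-1 3), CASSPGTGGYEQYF (0.307% in control 3) and 1 of the pair found in 9 mice (0.103% in anti-PD-1 1) exceeded 0.1% of productive templates in any mouse.

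Of the 909 CDR3s of all V genes found in at least 4 mice, 25 used TCRBV29-01, and edgeR called 0 of the 25 and 0 of the 909 (0%) against control in each comparison. Without adjustment, 99, 114 and 132 of the 909 and 1, 5 and 5 of the 25 had a p under 0.05 in the ANT008, anti-PD-1 and combination comparisons. DESeq2 called 1, 3 and 2 of the 909, with 0 of the 25 among them. The gene was chosen on these same template counts, with the pattern of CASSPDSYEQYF, 1 of the 25, already known, so nothing is read from the count of the 25.

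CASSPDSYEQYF was taken up with its pattern over the groups known, so its levels are given as a description, and nothing is drawn from its entry in the fit over all recurrent CDR3s. With TCRBV29-01 it was present in 14 mice with 2189 templates, always joined to TCRBJ02-07. In the anti-PD-1 mice it made up 1.53%, 1.10%, 0.317% and 2.73% of productive templates. In the combination mice it made up 0.0449%, 0.0245%, 0.0187% and 0.00276%. With TCRBV29-01, every anti-PD-1 mouse thus lay above every combination mouse. How many other recurrent CDR3s parted these groups in the same way was not counted.

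The control and ANT008 groups were each split by 1 mouse. The control mice had 0.00385%, 0.0485%, 0% and 1.03%, the third being 0 of 38116 templates, which allows a share of up to 0.00787% when the limit of a count of 0 is set at 3 templates of the total. The ANT008 mice had 2.07%, 0.0334%, 0.0347% and 0%, the last being 0 of 20770 templates, which allows up to 0.0144%. Both groups overlapped with anti-PD-1 through control 4 and ANT008 1. Group means were 0.270% ± 0.505 in control, 0.535% ± 1.02 in the ANT008, 1.42% ± 1.01 in the anti-PD-1 and 0.0227% ± 0.0174 in the combination group (SD, n = 4 each). Without the highest mouse of each group they were 0.0175%, 0.0227%, 0.983% and 0.0153%. Within TCRBV29-01 the CDR3 held 27.03% ± 20.2 of templates in anti-PD-1 mice and 0.513% ± 0.374 in combination mice.

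The anti-PD-1 mice did not share 1 join. In anti-PD-1 1 the CDR3 came mainly from version 3 with 367 templates, plus 116 of version 1. In anti-PD-1 2 it came from version 5 with 348. In anti-PD-1 4 it came from version 4 with 196, and anti-PD-1 3 held 144 of version 4, 47 of version 6 and 39 of version 7. Outside that group, control 4 held 383 templates of version 1 and ANT008 1 held 467 of version 2.

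In total 15 CDR3 nucleotide versions encoded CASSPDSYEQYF with TCRBV29-01, 7 of them with at least 10 templates, and they carried 2 to 5 inserted nucleotides. The proline codon, which the uncut V end does not hold, was made at least in part from inserted letters in all 15. It read CCg in versions 1, 2, 4 and 5, CCC in versions 3 and 6 and Cca in version 7. In versions 4 and 5, where the V end was cut by 6, an inserted C also completed the serine codon before it as agC. Of the 15 versions, 6 were found in at least 2 mice. Version 4 and version 6 were each in 4 mice, spanning anti-PD-1 3 (144 and 47 templates) and combination 3 (4 and 1). Of all 5992 productive TCRBV29-01 rearrangements of 87 nucleotides, 118 (1.97%) were found in at least 2 mice, against 2.55% over all V genes. Whether material passed between samples was not tested.

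**Figure D5:**
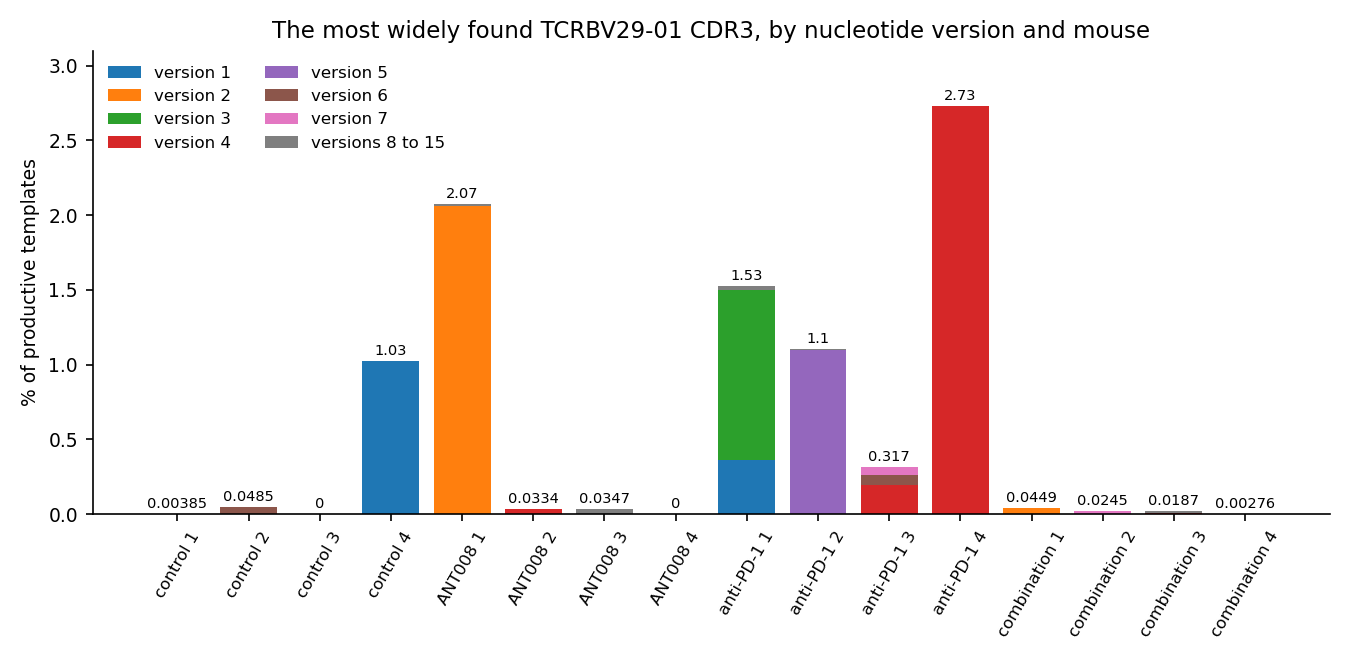
Percent of productive templates in each of the 16 mice that encoded the TCRBV29-01 CDR3 found in most mice (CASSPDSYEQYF), stacked by nucleotide version and labelled with the total. The 4 anti-PD-1 mice, at 0.317% to 2.73%, were built from different versions, while the 4 combination mice stayed at or below 0.0449%. This CDR3 was taken up with its pattern known, and its templates with other V genes are left out.

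The same CDR3 was also made with other V genes, so that TCRBV29-01 held 73.5% of its templates. TCRBV14-01 gave 733 templates in 10 mice and all other V genes together 55. The templates of this CDR3 with a V gene other than TCRBV29-01 in combination mice 1 to 4 numbered 121, 21, 0 and 175, against 15, 6, 11 and 1 with TCRBV29-01. In anti-PD-1 mice 1 to 4 they numbered 144, 46, 100 and 7, against 492, 349, 230 and 196. Counted with all V genes, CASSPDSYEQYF ranked 18 among the CDR3s of combination 1 and 17 in combination 4. It ranked 33 in anti-PD-1 3, so by rank over all V genes the anti-PD-1 and combination mice overlapped.

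In all, 10 other TCRBV29-01 CDR3s differed from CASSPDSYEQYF at 1 amino acid, all with TCRBJ02-07. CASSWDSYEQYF was the largest with 183 templates in 4 mice, at 0.516% of productive templates in ANT008 2. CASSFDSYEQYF had 92 templates in anti-PD-1 3 alone, and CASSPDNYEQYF had 40 in 3 mice, most of them in ANT008 4 at 0.159%. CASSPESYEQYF had 33 templates in control 2 and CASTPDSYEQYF 13 in control 1. The other 5 had at most 2 templates each. In the combination mice these neighbours had 13 templates in all, 8 of them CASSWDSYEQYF, 3 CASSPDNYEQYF and 2 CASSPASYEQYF.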

How the data were processed

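The deposited files hold TCRβ rearrangements from Adaptive Biotechnologies' immunoSEQ mouse TCRB Survey assay, 1 row per unique 87-nucleotide rearrangement. Template counts were made by the authors' sequencing provider, per the file headers, by a counting method that corrects amplification with a synthetic repertoire, and are whole numbers. Numbers of deleted and inserted nucleotides and CDR3 length were deposited as other per-rearrangement values. The genome build behind the V, D and J names was not given in the sources used here, so no coordinates were used, and symbols were matched to RefSeq (GRCm38.p6) for 33 of 33 V genes. The members, lists and tests were chosen with earlier results of these data known.

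Samples were grouped by their titles. Productive templates and unique rearrangements per V gene, V-J pair and recurrent CDR3 (V gene and amino acid sequence in at least 4 of 16 mice) were tested with edgeR 4.0.16 (R 4.3.3), quasi-likelihood, all 16 samples in 1 fit, library sizes fixed at the sample's total. V genes and pairs needed a count of 10 in at least 4 samples. Adjustment was by Benjamini-Hochberg over all features, with a threshold of 0.05. Measures per mouse were compared with control over all 10510500 distinct assignments (the study's one-way comparison with Dunnett's test, made exact), and within-mouse differences over all sign flips, two-sided, with scipy 1.17.1 and numba 0.67.0. Scripts were tested on simulated data. DESeq2 1.42.0, TMM and the other alternatives are in the closing section. Named clones were each mouse's leading TCRBV29-01 rearrangement, the 10 CDR3s in most mice and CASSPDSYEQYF; related CDR3s were named after their values were seen. Group titles carry replicate numbers 1 to 4, but the sample numbers inside the files differ from them and nothing ties a number to a litter, batch or day.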

Additional observations from a re-analysis of the deposited data

Results flagged for a closer look

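Over 10 measures in 4 groups of 4 mice, 40 groups were searched for a mouse that stood apart from the other 3 by Dixon's criterion, and chance alone gives about 1 in 20. In all, 4 mice did so. Of the out-of-frame templates of control 3, 11.1% used TCRBV29-01, against 1.12% to 2.14% in the other control mice, and a single rearrangement with TCRBJ02-05 held 8.76% of them. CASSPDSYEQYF with TCRBV29-01 held 1.03% of productive templates in control 4 against 0% to 0.0485% in the other control mice. The same CDR3 held 2.07% in ANT008 1 against 0% to 0.0347% in the other ANT008 mice. Mean inserted nucleotides were 3.98 in control 1 against 3.73 to 3.77 in the other control mice.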

How the results depend on the processing

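Over 55 results and 1091 alternatives, 880 of which left out 1 mouse, 998 kept direction and side of the threshold, or a count within 1.5 times. The cause of the following changes was not tested. For the TCRBV29-01 share of templates, the log2 difference from control became -0.25 (ANT008) and -0.13 (combination) with DESeq2, -0.29 and -0.20 with TMM, -0.0487 for ANT008 without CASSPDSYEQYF and -0.0351 for the combination without the most frequent rearrangement of each V gene, none called. V genes called by templates became 0 for ANT008 with TMM and, for the combination, 1 with DESeq2 and 1 with no filter on low V genes. Without rearrangements of 1 template the unique differences were -0.15 (ANT008), -0.10 (anti-PD-1) and -0.18 (combination). Out-of-frame templates gave -0.43 for ANT008 and -0.70 for the combination, with 4 V genes called for anti-PD-1 and 1 for the combination. Weighted by templates, CDR3 length differed by -1.74 (anti-PD-1) and -0.74 nucleotides (combination), and inserted nucleotides by -0.28 (ANT008) and -0.0155 (combination). By templates the productive over out-of-frame log2 ratio was 0.54 (exact sign-flip adjusted p = 0.107), 0 J genes were called in productive and 0 in out-of-frame rearrangements, and the share with TCRBV29-01 less that with other V genes became -0.445 points for TCRBJ01-01, -0.331 for TCRBJ01-03, -0.654 for TCRBJ01-05, -0.0195 for TCRBJ01-06, -3.46 for TCRBJ02-01 and 7.41 for TCRBJ02-07. Without rearrangements of 1 template it became -1.88 for TCRBJ01-01 (exact sign-flip adjusted p = 0.0386), -0.224 for TCRBJ01-03 and -0.0065 for TCRBJ02-06, and the calls of TCRBJ02-07 (-0.890, adjusted p = 0.679) and TCRBJ02-04 (-0.944, adjusted p = 0.327) were lost.

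Leaving out 1 mouse gave template differences of -0.18 to 0.22 for ANT008 (negative without control 1, control 3, ANT008 1 or ANT008 2), -0.0910 to 0.37 for the combination (negative without combination 2), 0.11 to 0.61 for anti-PD-1 (lowest without anti-PD-1 2, highest without anti-PD-1 3) and -0.56 to 0.0215 for the interaction (positive without anti-PD-1 2). V genes called ranged from 0 to 2 by templates for ANT008 (2 without ANT008 2), and from 0 to 1 for the combination by templates and by unique rearrangements (1 without control 3). In out-of-frame rearrangements they ranged from 0 to 3 for ANT008 (1 without control 3, 3 without anti-PD-1 4), and J genes called from 0 to 4. The leading clone's share of TCRBV29-01 templates differed from control by -1.23 to 11.995 points for anti-PD-1 (negative without anti-PD-1 4) and by -8.22 to 2.55 for the combination (positive without control 4 or combination 4). CDR3 length differed by 0.432 to 0.668 nucleotides for ANT008 and 0.209 to 0.645 for anti-PD-1, and inserted nucleotides by -0.0468 to 0.0873 for ANT008 and -0.0359 to 0.061 for the combination. The TCRBJ02-06 difference ranged from -0.00198 to 0.0163 points, negative without ANT008 2 or anti-PD-1 3.

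Whether replicate numbers pair the mice was not settled. Deviations of log2 unique shares from group means were correlated over the V genes tested. The 24 same-numbered pairs had a mean correlation of 0.122, from -0.516 to 0.548. The 72 pairs of different numbers had a mean of -0.0353, from -0.761 to 0.579, and 5 of 16 mice correlated best with their own number. For TCRBV29-01 alone, replicate 2 had the highest unique productive share in every group, at 5.11%, 5.56%, 5.75% and 5.44%. By templates, replicate 3 was lowest in every group but control. With the replicate number as a block the template differences were 0.02, 0.36 and 0.12 (edgeR adjusted p = 0.984, 0.660 and 0.892). The unique differences with the block were 0.17, 0.11 and 0.16 (edgeR adjusted p = 0.274, 0.662 and 0.783). Their SEs were 0.085, 0.083 and 0.081, in place of 0.119, 0.117 and 0.114 without it. V genes called by templates for ANT008 fell from 1 to 0 with the block, and no other call changed. With 4 mice per group and 291 to 2692 TCRBV29-01 templates per mouse, differences in share below the spread between mice could not pass the test.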
